A study of Mus musculus with 2 samples.

Results

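Monocyte-attracting CC chemokines are small secreted proteins that draw monocytes and their descendants into inflamed tissue and tumours. The 10 genes described here are 9 ligands, Ccl2, Ccl7, Ccl8, Ccl12, Ccl3, Ccl4, Ccl6, Ccl9 and Ccl24, and the receptor Ccr2. They were taken by name from the 31053 genes in the files, and their UMIs (counted single mRNA molecules) were read in each cell of B16F10 tumours. B16F10 is a mouse melanoma line grown here under the skin. Small tumours were taken from mice with intact Atf4 (Atf4wt/wt, called WT) and from mice whose own Atf4 had been deleted (Atf4D/D, called KO), and 2 tumours per genotype were pooled into 1 scRNA-seq library. By the labels, both groups were pooled males and females aged 11 weeks, but the sex-linked UMIs of WT, given below, did not show both sexes. All hosts carried Rosa26::CreERT2, a Cre that is active throughout the body only after tamoxifen, and both genotypes received tamoxifen, so the drug and the Cre are shared by the controls. The injected melanoma cells kept their own Atf4 in both libraries. ATF4 is the transcription factor at the end of the integrated stress response.

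As background, CC chemokines bind G protein-coupled receptors on leukocytes and direct them up a gradient. CCR2, carried by inflammatory monocytes, is the receptor for CCL2, CCL7 and CCL12 in the mouse, and it governs their exit from the marrow into blood. CCL3, CCL6 and CCL9 act through CCR1, and CCL24 (eotaxin-2) attracts eosinophils through CCR3. CCL8 of the mouse acts through CCR8. In tumours the recruited monocytes become macrophages, which secrete many of the same ligands.

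The ligand genes lie mostly together. In GRCm38 with GENCODE vM21, Ccl2 (chromosome 11, 82035571 to 82037453), Ccl7 (82045712 to 82047525), Ccl12 (82101845 to 82103400) and Ccl8 (82115185 to 82116799) follow each other on the plus strand. Further along chromosome 11 lie Ccl9 (83572919 to 83578636) and Ccl6 (83587882 to 83593087) on the minus strand, Ccl3 (83647844 to 83649355) on the minus strand and Ccl4 (83662584 to 83664683) on the plus strand. Ccl24 is on chromosome 5 (135569937 to 135573049, minus strand) and Ccr2 on chromosome 9 (124101950 to 124113557, plus strand). All 10 are protein-coding.

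Promoters of 6 members were found in the RefSeq table for GRCm38.p6, each running from 250 bases before the start of transcription to 50 after it. The promoters of 2 neighbouring pairs are shown because the genes of each pair lie beside each other and their levels are set side by side below. Ccl8 (chr11:82114935-82115234) and Ccl12 (chr11:82101595-82101894) are given in their plus strand, and Ccl6 (chr11:83593038-83593337) and Ccl9 (chr11:83578587-83578886) in their minus strand. Capitals mark matches on either strand to the 4 motifs searched, which were TATAAA, TGATGNAA (the C/EBP-ATF composite), the NF-kappaB consensus and an interferon-response element (a pair of GAAA words 2 bases apart).
Ccl8: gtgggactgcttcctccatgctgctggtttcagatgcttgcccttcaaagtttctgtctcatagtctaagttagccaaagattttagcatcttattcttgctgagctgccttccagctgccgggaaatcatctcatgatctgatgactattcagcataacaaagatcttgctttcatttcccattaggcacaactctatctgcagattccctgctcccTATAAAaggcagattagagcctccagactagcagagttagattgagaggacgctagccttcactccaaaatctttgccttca
Ccl12: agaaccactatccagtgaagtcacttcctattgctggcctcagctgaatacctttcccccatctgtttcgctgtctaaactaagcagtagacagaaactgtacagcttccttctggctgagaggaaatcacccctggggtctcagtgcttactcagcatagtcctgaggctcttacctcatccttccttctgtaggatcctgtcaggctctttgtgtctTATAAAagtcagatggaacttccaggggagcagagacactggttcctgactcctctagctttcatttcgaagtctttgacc
Ccl6: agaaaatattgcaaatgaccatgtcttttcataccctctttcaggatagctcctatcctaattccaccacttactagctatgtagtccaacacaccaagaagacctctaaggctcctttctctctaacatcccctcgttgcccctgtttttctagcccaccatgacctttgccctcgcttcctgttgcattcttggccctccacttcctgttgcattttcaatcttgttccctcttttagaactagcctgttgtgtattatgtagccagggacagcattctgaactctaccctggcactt
Ccl9: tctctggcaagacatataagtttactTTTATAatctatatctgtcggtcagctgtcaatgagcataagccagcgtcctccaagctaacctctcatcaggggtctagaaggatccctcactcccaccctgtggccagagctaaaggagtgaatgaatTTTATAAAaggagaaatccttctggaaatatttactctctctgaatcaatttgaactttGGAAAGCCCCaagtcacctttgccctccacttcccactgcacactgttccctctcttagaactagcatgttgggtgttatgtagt
Ccl8 and Ccl12 each held a TATAAA at bases -32 to -27 and -31 to -26 from the start, and this motif was in 13.6% of 32851 promoters of that length. Ccl9 held TATAAA at -92 to -87, overlapping a match on the other strand at -94 to -89, a further match on the other strand at -224 to -219, and the NF-kappaB consensus on the other strand at -35 to -26. The NF-kappaB consensus was in 8.46% of all promoters. TGATGNAA and the interferon-response element, in 3.97% and 3.44% of all promoters, were in none of the 6 windows of the members, and Ccl6, Ccl3 and Ccr2 held none of the 4 motifs. A match is a description of the letters and not a bound site.

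The WT library had 38417113 UMIs and the KO library 38290024. The study's filter of 200 to 5000 genes and at most 7.5% mitochondrial UMIs kept 3861 WT and 3557 KO cells, with median depths of 3920 and 6279 UMIs. The libraries shared 10 barcodes, of which 1 was among the kept cells. Cells were sorted into gates by counts of detected marker genes, none of them a member. The melanoma gate held 1614 WT and 1771 KO cells. Macrophages numbered 778 and 626, and those with at least 5 of 9 markers of tissue-resident macrophages, such as Lyve1, Folr2 and Cbr2, were called resident-like (281 and 327 cells). The others were called C1q-high (497 and 299 cells). All macrophages had at least 4 of 9 C1q markers, so this name does not set them apart from resident-like cells. The summed C1q list was at 19440 CPM in resident-like and 18186 in C1q-high cells of WT. In KO it was at 21531 and 23353 CPM. There were also 293 and 195 monocytes, marked by Ly6c2, Chil3 and Plac8, and 186 and 214 fibroblasts. A gate of 314 and 150 myeloid cells with high MHC class II genes was also led by Ccl17 and Napsa, genes of dendritic cells, and so was not named as a cell type. Of the macrophages, 110 WT and 61 KO cells sat exactly at the resident cut and 114 and 64 were 1 marker below it.

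Atf4 was read first as the check of the labels. In macrophages its CPM, the share of a gate's UMIs on the usual per-million scale, was 177 in WT and 43.1 in KO. The log2 KO/WT ratio was -2.04 (95% counting interval -2.42 to -1.67). The ratio was -3.19 in monocytes and -2.54 in fibroblasts, but -0.10 in melanoma cells. The labels also say that each pool held both sexes, whereas every host gate of the WT library had 0 Y-linked UMIs and the KO macrophages had 127. Xist UMIs without any Y-linked UMI were found in 579 WT but 68 KO macrophages, and these are called Xist-only cells below. Host sex and genotype thus cannot be fully told apart, and values in Xist-only cells of both libraries, or in KO cells with a Y-linked UMI against all WT cells, are given beside the results. Haemoglobin genes and Alas2 were at 1591 to 3119 CPM in the WT macrophage states and monocytes and at 4.63 CPM or less in KO. Each genotype had only 1 library, so no test between genotypes is possible, and every interval is exact, at 95%, and covers counting error only. It takes in neither differences between mice nor the uneven spread of a gene over cells, since up to 211 UMIs of Ccl8 came from 1 cell.

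Macrophages held the largest part of the UMIs of most ligands, and fibroblasts held a share of Ccl2 and Ccl7. The macrophage gates held 90.3% of all Ccl8 UMIs in kept WT cells and 90.5% in KO, 81.7% and 89.7% of those of Ccl12, and 70.4% and 75.3% of those of Ccl6. For Ccl2 the shares were 59.1% and 48.0%, and fibroblasts held 17.0% and 29.0% of its UMIs. For Ccl24 the macrophage share was 61.6% in WT and 42.6% in KO, with 15.3% and 21.2% in monocytes and 8.22% and 20.4% in the class II-high gate. Ccr2 was spread over C1q-high macrophages (31.8% and 22.7%), monocytes (22.6% and 33.3%) and the class II-high gate (26.8% and 19.6%). These shares follow the number and depth of the cells in each gate as well as the level in them.

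**Figure D1:**
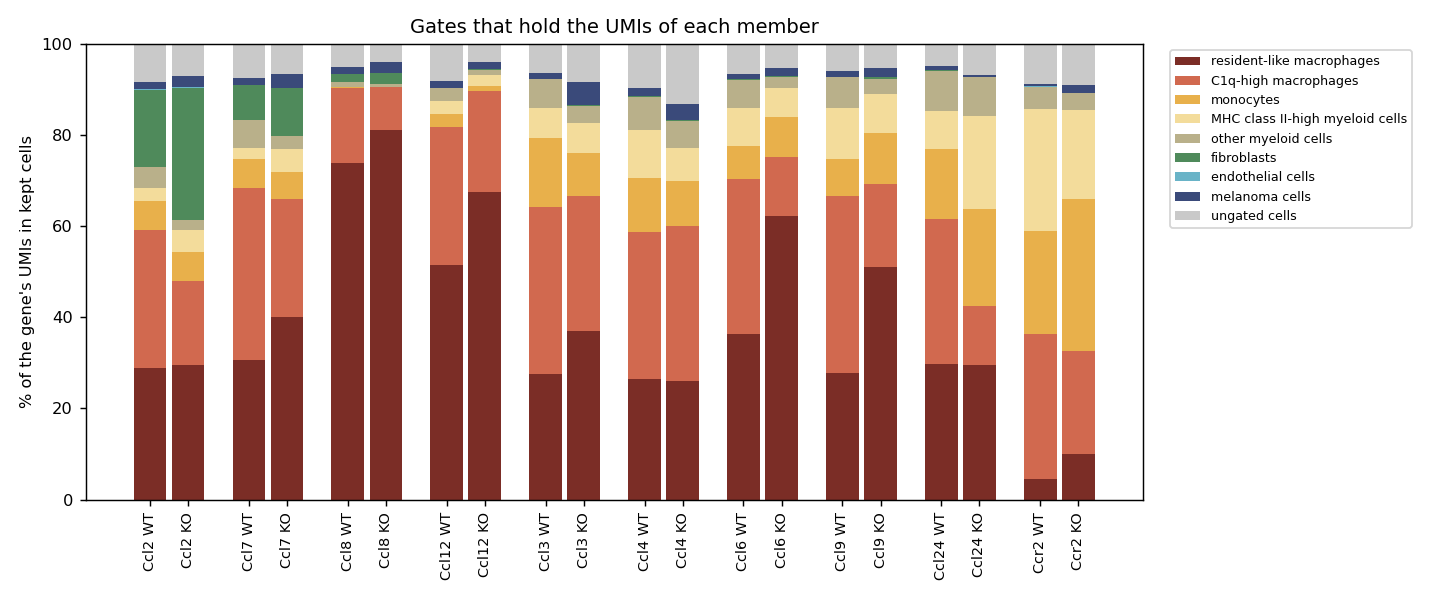
Share of each member's UMIs (percent of the gene's UMIs in kept cells, 0 to 100) found in each gate, with 1 bar per gene and library. Resident-like macrophages held 73.9% of Ccl8 UMIs in WT and 81.0% in KO, fibroblasts 17.0% and 29.0% of Ccl2 UMIs.

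UMIs counted at the 3′ end do not grow with the length of a gene, but capture can differ between genes, so levels are compared between cells for 1 gene at a time.

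Ccl2, the main ligand of CCR2, was found in every myeloid gate and in fibroblasts. In WT it was at 2477 CPM in resident-like macrophages (2378 to 2580), 2106 in C1q-high macrophages, 1937 in fibroblasts, 1542 in monocytes and 473 in class II-high cells. KO had 1749 CPM in resident-like macrophages (1671 to 1831), 2035 in C1q-high macrophages, 2099 in fibroblasts, 1888 in monocytes and 1486 in class II-high cells. The order of the gates was thus not the same in the libraries, and the KO intervals of C1q-high macrophages (1920 to 2155) and fibroblasts (2005 to 2198) overlapped. The class II-high gate was the lowest of these 5 in both libraries.

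Ccl7, next to Ccl2 on the chromosome and another CCR2 ligand, followed it in part. Resident-like macrophages had 1186 CPM in WT and 1158 in KO, C1q-high macrophages 1191 and 1372, monocytes 698 and 856, and fibroblasts 393 and 368. The WT levels of both macrophage states did not differ beyond counting error. In macrophages thinned to 2000 UMIs, 75.9% of the WT cells with a Ccl2 UMI also had a Ccl7 UMI, against 34.0% of those without. In KO the shares were 77.5% and 30.0%.

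Ccl8 was spread unevenly over the macrophage states. It stood at 4147 CPM in WT resident-like macrophages (4018 to 4278) and at 6964 in KO (6807 to 7124), against 748 and 1506 CPM in C1q-high macrophages. Resident-like cells were 5.54-fold above C1q-high cells in WT (5.15 to 5.97) and 4.62-fold in KO (4.31 to 4.96). Monocytes had only 9 and 7 UMIs, or 26.8 and 32.4 CPM, and class II-high cells 1 and 6 UMIs. Of resident-like macrophages thinned to 2000 UMIs, 76.5% in WT (70.7 to 81.7) and 91.5% in KO (87.7 to 94.4) had a Ccl8 UMI. Unthinned, 79.0% and 92.4% of these cells had one, and the median cell had 3131 and 3054 UMIs. Melanoma cells should lack it and gave thinned shares of 0.763% and 2.94%, with 11477 and 10901 UMIs in the median cell. Thinning left out 38 WT and 33 KO resident-like cells.

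Ccl12, the neighbour of Ccl8 and a ligand of CCR2, also favoured the resident-like state, by 2.09-fold in WT (1.83 to 2.38) and 1.64-fold in KO (1.49 to 1.81). Its levels were 660 and 1639 CPM in resident-like macrophages, 316 and 998 in C1q-high macrophages and 107 and 116 in monocytes. Fibroblasts had 0 Ccl12 UMIs in WT and 5 in KO. Where a WT macrophage had a Ccl8 UMI at 2000 UMIs, 50.4% had Ccl12 too, against 22.4% of those without. The KO shares were 68.5% and 54.8%. Cells of both states enter these shares.

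**Figure D2:**
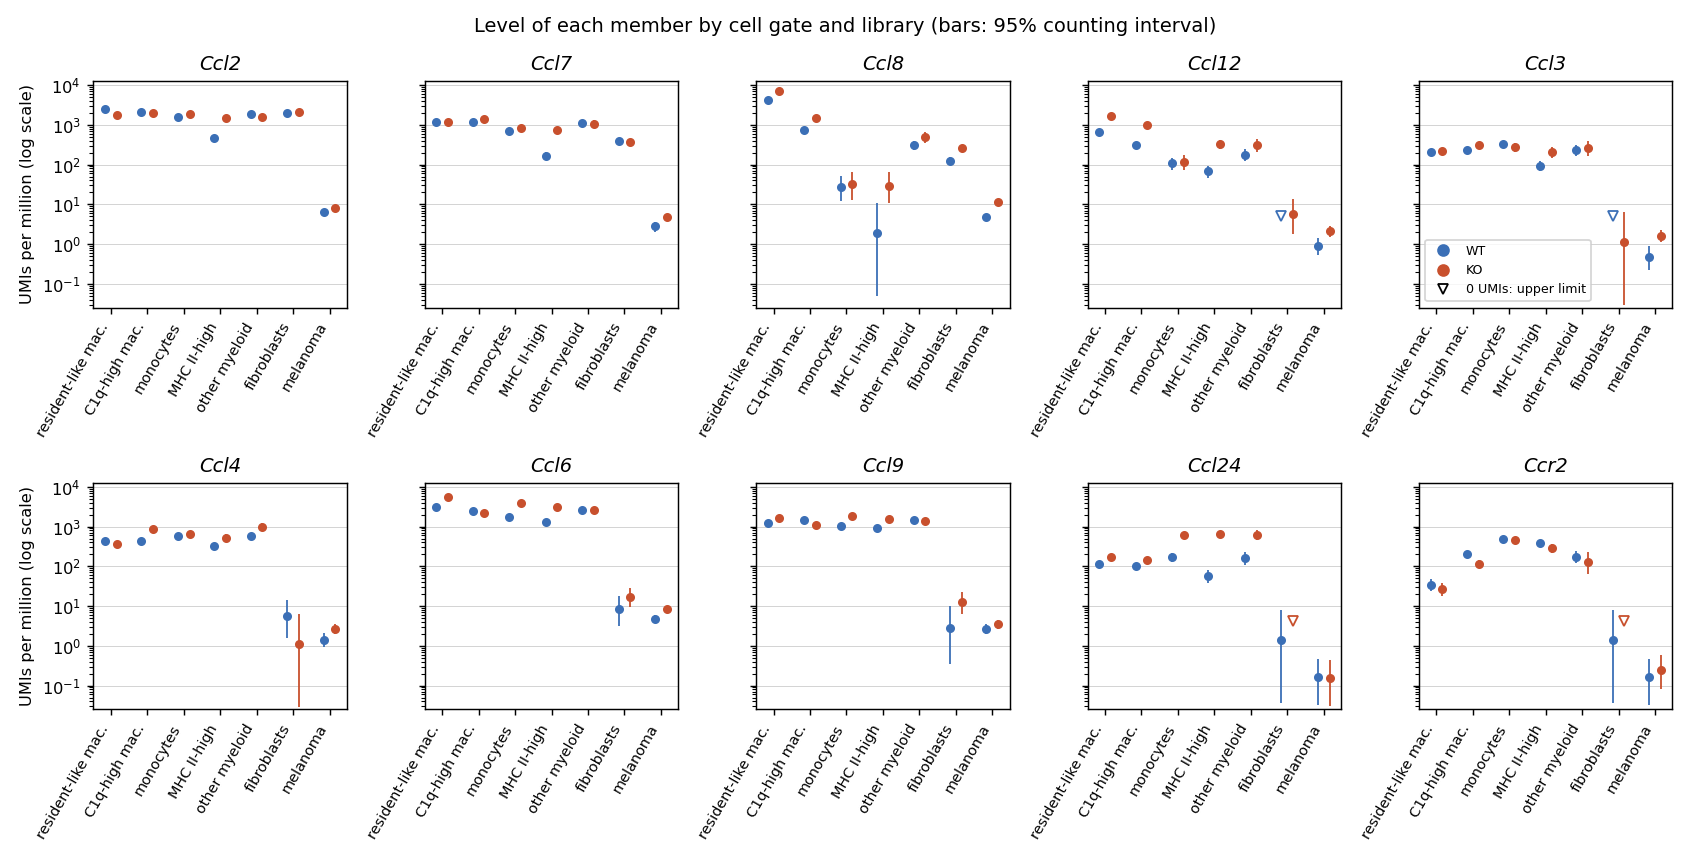
Level of each member (CPM, log scale) in 7 gates for WT and KO, with 95% counting intervals, and open triangles at the upper limit where 0 UMIs were counted. Ccl8 was at 4147 CPM in WT resident-like macrophages and 26.8 CPM in WT monocytes, whereas Ccl2 lay between 473 and 2477 CPM over the WT myeloid gates and fibroblasts.

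Ccl3 and Ccl4, the macrophage inflammatory proteins, differed less between the myeloid states in WT. Ccl3 was between 94.3 CPM in class II-high cells and 328 in monocytes, and Ccl4 between 329 and 570.5 CPM in the myeloid gates. In KO, Ccl4 was at 356 CPM in resident-like macrophages (321 to 394) and 855 in C1q-high macrophages (781 to 934), so that the former were 0.416-fold of the latter, where the WT fold was between 0.883 and 1.15. A macrophage with a Ccl3 UMI at 2000 UMIs more often had Ccl4, in 49.6% against 23.5% of WT and 55.0% against 22.7% of KO cells.

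Ccl6 and Ccl9, neighbours that occur in rodents and act through CCR1, were in every myeloid gate. WT levels of Ccl6 ran from 1339 CPM in class II-high cells to 3192 in resident-like macrophages (3079 to 3307), and KO levels from 2180 in C1q-high macrophages to 5592 in resident-like ones (5451 to 5736). Ccl9 ran from 902 to 1471 CPM over the WT myeloid gates and from 1121 to 1809 CPM in KO. In WT the C1q-high state exceeded the resident-like state for Ccl9, since the resident-like level was 0.871-fold of it (0.808 to 0.939), but in KO it was 1.51-fold (1.38 to 1.65). Over the 16 profiles of 8 gates in both libraries, Ccl6 and Ccl9 had the highest correlation of log2(CPM + 10) with each other among all genes with at least 200 UMIs, at r = 0.997. These profiles share libraries and include gates without the genes, so this r only describes their common restriction to myeloid cells.

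Ccl24 was sparse in WT, at 115 CPM in resident-like macrophages, 99.9 in C1q-high macrophages and 167 in monocytes. The intervals of the macrophage states overlapped. Few cells held it, since all 56 UMIs of WT monocytes came from 12 of 293 cells and 19 of them from 1 cell. KO had 615.5 CPM in monocytes (515 to 729) and 634 in class II-high cells (529 to 754).

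Ccr2, the receptor, was ordered opposite to Ccl8 over monocytes and the macrophage states. It was highest in monocytes, at 489 CPM in WT (417 to 570) and 449 in KO (364 to 548), followed by class II-high cells at 375 and 282 CPM, C1q-high macrophages at 199 and 114, and resident-like macrophages at 34.9 and 27.2. The WT intervals of monocytes and class II-high cells (324 to 432) overlapped, and the steps from there to the macrophage states did not. Taken directly, monocytes were 1.30-fold above class II-high cells in WT (1.05 to 1.61) and 1.59-fold in KO (1.13 to 2.25). Monocytes were 2.46-fold above C1q-high macrophages in WT (2 to 3.02) and 3.94-fold in KO (2.85 to 5.47). At 1000 UMIs per cell, 36.4% of WT and 34.3% of KO monocytes had a Ccr2 UMI, against 0.0623% and 0 of 1759 melanoma cells. The unthinned shares were 39.6% and 34.4%.

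Outside the myeloid cells, fibroblasts had Ccl2 and Ccl7. Ccl2 in fibroblasts was 85.2% of the macrophage level in WT (80.2 to 90.5) and 113% in KO (107 to 120), and Ccl7 33.1% and 29.8%. Ccl8 was at 5.57% and 5.13% of the macrophage level. The other members were at 1.32% or less. For comparison, the macrophage genes C1qa, C1qb and C1qc, which fibroblasts should lack, were at 0.0722% to 0.331% of their macrophage level there, but Csf1r was at 4.28% and 2.05%. The Ccl8 level in fibroblasts was therefore above the complement genes, and its interval overlapped that of Csf1r in WT (4.47 to 6.87 against 2.13 to 7.70) but not in KO. Ccl2 had up to 174 UMIs in a single WT fibroblast.

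Melanoma cells had members at trace levels. Their levels ranged from 0.0939% to 0.645% of the macrophage level of the same library, where C1qa, C1qb, C1qc, Csf1r, Lyz2, Ms4a7, Pf4 and Ctss ranged from 0.111% to 0.220%. Ccl6, Ccl8, Ccl9 and Ccl12 lay between 0.147% and 0.235%. Ccl2, Ccl7, Ccl3 and Ccl4 reached 0.445%, 0.387%, 0.645% and 0.497% in KO. Of the Ccl3 UMIs in KO melanoma cells 5 of 32, and of the Ccl4 UMIs 8 of 52, came from 1 cell each. Apoe, which melanoma cells express, was at 12.7% and 8.94%. The first 4 ligands thus lay in or just above the range of the reference genes. The other 4 lay further above it in KO, and Ccl2, Ccl7 and Ccl4 were at 0.278%, 0.234% and 0.325% in WT. Whether melanoma cells made any of them was not tested.

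**Figure D3:**
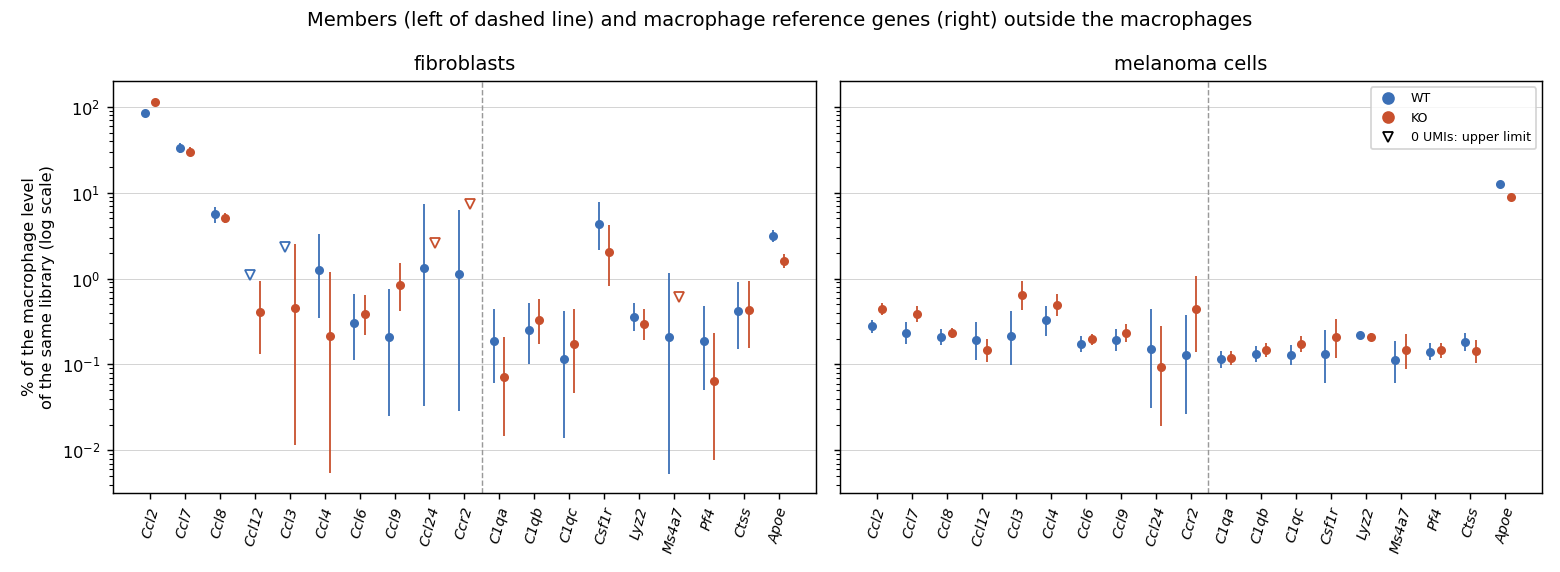
Level in fibroblasts and melanoma cells as a percent of the macrophage level of the same library (log scale), for the members and for 9 macrophage reference genes, with 95% counting intervals. Ccl2 and Ccl7 in fibroblasts, at 29.8% to 113%, stand above all reference genes, and the members in melanoma cells lie at 0.645% or less.

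The comparison of the host genotypes asked which ligands differed in host cells of the KO library, where Atf4 RNA was reduced. The 9 ligands summed to 11110 CPM in WT macrophages and 16369 CPM in KO, a log2 ratio of 0.56 (0.53 to 0.58). They differed by 0.51 in resident-like macrophages, 0.22 in C1q-high macrophages, 0.69 in monocytes (6235 to 10092 CPM), 1.32 in class II-high cells and 0.16 in fibroblasts (2475 to 2764 CPM). Resident-like cells made up 36.1% of WT and 52.2% of KO macrophages, and the ratio in macrophages was 0.41 with both states weighted equally. In Xist-only cells it was 0.59 in macrophages, 1.39 in monocytes and -0.07 (-0.23 to 0.08) in fibroblasts. The sum in macrophages followed mostly Ccl8 (2274 CPM in WT, 5045 in KO), Ccl6 (2782 and 4393) and Ccl12 (471 and 1414). Ccl2 was lower in KO macrophages, at 1850 against 2273 CPM.

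In macrophages, 2 of the 10 members, Ccl8 and Ccl12, were at least 2-fold higher in KO, where 2.96% of the 8763 genes with at least 20 UMIs were. Ccr2 was at least 2-fold lower, as were 2.69% of all genes. The median log2 ratio was 0.22 for the members and -0.002 for all genes. Within the states, resident-like macrophages had 1 of 10 members higher by 2-fold, Ccl12, against 3.31% of 7437 genes, and 0 lower, against 3.36%. C1q-high macrophages had 2 of 10 higher, Ccl8 and Ccl12, against 3.01% of 6846 genes, and 0 lower, against 3.94%. Monocytes had 2 of 9 measured members higher by 2-fold, Ccl6 and Ccl24, against 4.31% of 3503 genes, and 0 lower, against 5.48%. The class II-high gate had 6 of 9 higher, against 4.17% of 4120 genes, and 0 lower, against 7.6%. Its KO cells were too few for the sets by sex-linked genes. In fibroblasts 2 of 4 were higher, against 5.53% of 7145 genes, and 0 lower, against 5.78%. These were Ccl8 and Ccl6, the latter on 6 and 15 UMIs with an interval that included 0 (-0.43 to 2.67). Ccl6 in fibroblasts was at 0.304% of the macrophage level in WT and 0.389% in KO, where C1qb was at 0.251% and 0.331%. The members are related genes that share cells, so the counts are not independent.

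**Figure D4:**
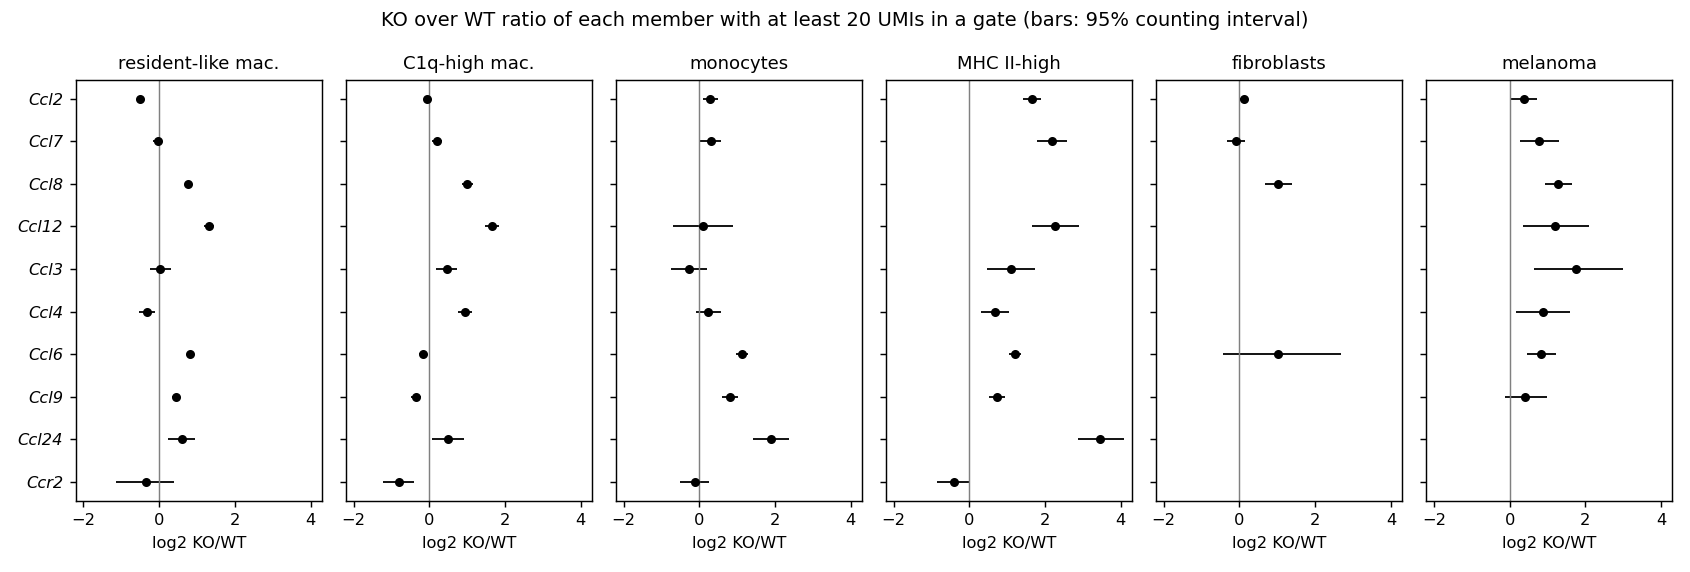
log2 KO/WT ratio of CPM for each member with at least 20 UMIs in a gate, with 95% counting intervals and a line at 0. Ccl8 and Ccl12 lie to the right of 0 in both macrophage states, Ccl24 furthest to the right in monocytes and class II-high cells at 1.88 and 3.46, and Ccr2 at or to the left of 0 in each myeloid gate shown.

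Ccl12 had the largest ratio of the members in macrophages. It went from 471 CPM in WT to 1414 CPM in KO, a log2 ratio of 1.59 (1.48 to 1.70). Within states the ratio was 1.31 in resident-like (1.18 to 1.45) and 1.66 in C1q-high macrophages (1.47 to 1.85). Among Xist-only cells it was 1.90 and 1.96, and with only the KO cells that had a Y-linked UMI it was 0.87 and 1.67. It was thus higher in KO among Xist-only cells, and also in the Y-linked set, where sex and genotype differ together. At 2000 UMIs, 36.6% of WT (32.5 to 40.9) and 66.0% of KO macrophages (61.2 to 70.6) had a Ccl12 UMI. These shares cover only the 519 WT and 406 KO macrophages deep enough, of both states together. The mix of states differed, since resident-like cells were 36.1% of all WT and 52.2% of all KO macrophages. In monocytes 36 and 25 UMIs gave a ratio of 0.11 (-0.69 to 0.88).

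Macrophages had 2274 CPM of Ccl8 in WT and 5045 in KO. The log2 ratio of 1.15 (1.10 to 1.20) was 0.79 with the states weighted equally. It was 0.75 in resident-like macrophages (0.69 to 0.80), and in C1q-high macrophages, from 748 to 1506 CPM, its interval ran from 0.87 to 1.15. The resident-like ratio was 0.30 (0.18 to 0.41) among Xist-only cells and 0.77 for KO cells with a Y-linked UMI, and it was 0.45 when 1 more marker was required. The summed markers of the resident-like list were also higher in the KO cells of that gate, at 11288 against 8077 CPM, and their part in the Ccl8 ratio was not tested. Fibroblasts had a Ccl8 ratio of 1.03 (0.67 to 1.40), from 127 to 259 CPM, and of 0.36 (-0.29 to 0.98) in Xist-only ones.

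Ccl2 and Ccl7 differed less in the macrophages. Ccl2 had a log2 ratio of -0.30 in macrophages (-0.36 to -0.23), with the resident-like state at -0.50 (-0.59 to -0.41) and the C1q-high state at -0.05 (-0.15 to 0.05). The resident-like ratio was 0.05 (-0.12 to 0.21) among Xist-only cells. Ccl7 was at -0.04 (-0.15 to 0.08) and 0.20 (0.08 to 0.33) in these states. In fibroblasts Ccl2 was at 0.12 (0.01 to 0.22) and Ccl7 at -0.10 (-0.33 to 0.14). A larger difference lay in the class II-high gate, where Ccl2 had a ratio of 1.65 (1.40 to 1.90) and Ccl7 of 2.17 (1.79 to 2.57). Neither ratio could be taken in the sets by sex-linked genes, which held 8 and 13 KO cells.

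Ccl6 and Ccl9 had the same sign in 4 gates, higher in KO in resident-like macrophages, monocytes and class II-high cells, and lower in C1q-high macrophages. Ccl6 had ratios of 0.81 (0.75 to 0.87), 1.12 (0.97 to 1.28), 1.20 (1.04 to 1.36) and -0.17 (-0.26 to -0.07) in these gates. For Ccl9 they were 0.44 (0.33 to 0.54), 0.80 (0.59 to 1.01), 0.74 (0.53 to 0.95) and -0.35 (-0.49 to -0.22). In resident-like macrophages, KO cells with a Y-linked UMI gave 0.92 for Ccl6 and 0.61 for Ccl9 against all WT cells. Sex and genotype differ together in that set. The resident-like direction was kept among Xist-only cells, with Ccl6 at 0.62 and Ccl9 at 0.36. The C1q-high direction was not. Ccl6 was at 0.46 there among 348 WT and 27 KO Xist-only cells, and at -0.86 for the 32 KO cells with a Y-linked UMI.

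Ccl3 in resident-like macrophages did not differ beyond counting error, at 0.03 (-0.25 to 0.31), and Ccl4 was lower in KO, at -0.33 (-0.53 to -0.12). In C1q-high macrophages they were higher in KO, at 0.47 (0.19 to 0.74) and 0.95 (0.77 to 1.13), but at -0.65 and -0.58 among Xist-only cells, where KO had 8 and 16 UMIs. In monocytes both intervals included 0.

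**Figure D5:**
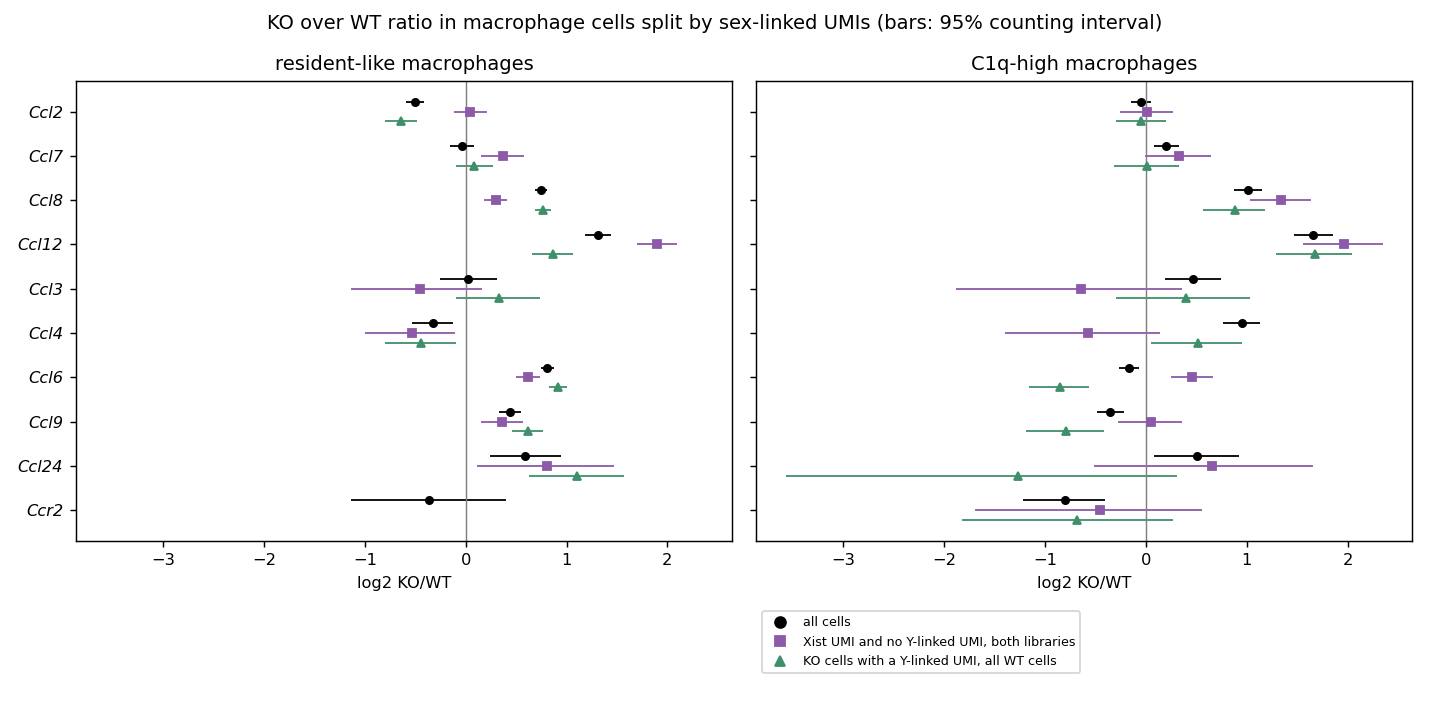
log2 KO/WT ratio of each member in resident-like and C1q-high macrophages for all cells, for Xist-only cells in both libraries, and for KO cells with a Y-linked UMI against all WT cells, with 95% counting intervals. Ccl12 and Ccl8 stay to the right of 0 in each set and Ccl6 does so in resident-like cells, whereas Ccl2, Ccl3 and Ccl7 in resident-like and Ccl2, Ccl3, Ccl4, Ccl6, Ccl9 and Ccl24 in C1q-high cells change side in at least 1 set.

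Ccl24 differed mostly outside the macrophages. Its log2 ratio was 1.88 in monocytes (1.42 to 2.36) and 3.46 in class II-high cells (2.88 to 4.08), from 57.7 to 634 CPM. In macrophages it was 0.60 (0.34 to 0.87). The class II-high gate had too few KO cells for the sets by sex-linked genes. Of 187 WT and 105 KO monocytes at 1000 UMIs, 4.28% (1.86 to 8.26) and 19.0% (12.04 to 27.9) had a Ccl24 UMI, against 0 melanoma cells in either library. In the 20 KO monocytes with a Y-linked UMI the ratio was -0.36 (-2.68 to 1.26) on 3 UMIs. In Xist-only monocytes it was 4.94, but only 24 KO cells, against 140 WT cells, were in that set. The size of the ratio in monocytes thus hung on which few cells were taken. Its nearest profiles over the gates were those of Igsf6, Ccr1 and Arg1, at r of 0.962, 0.960 and 0.957. Arg1 is an arginase of hypoxic and alternatively activated macrophages.

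Other gene lists also differed between the libraries in the same gates. The summed list of 8 hypoxia-related genes, of which Arg1 is a member, was at 1744 CPM in WT and 3517 in KO monocytes, 1577 and 3379 in class II-high cells, 1164 and 1968 in resident-like macrophages and 1268 and 2841 in fibroblasts. In the class II-high gate the dendritic list was lower in KO, at 213 against 573 CPM with Clec9a, Xcr1, Siglech and Klk1 at 0, and the C1q list was higher, at 3547 against 1818 CPM. Inflammatory markers there were at 8229 against 4626 CPM. A different mix of cells and different levels within cells cannot be told apart here. The fibroblast list was at 50644 and 36465 CPM in fibroblasts. Monocytes of KO had 389 CPM of the neutrophil list and those of WT 44.7. The part of these in the ligand ratios was not tested.

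Among myeloid cells grouped instead by programme, which cuts across the states, Ccl8 was at 1032 CPM in WT and 3401 in KO cells of the hypoxic programme (310 and 368 cells). Resident-like macrophages made up 20.6% of these cells in WT and 31.2% in KO. Ccl24 was at 156 and 476 CPM in the inflammatory programme. In the interferon programme Ccl4 was at 928 and 1650 CPM, against 771 and 831 in the inflammatory programme, but only 75 WT and 83 KO cells were in the former.

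Ccr2 in monocytes did not differ beyond counting error, at -0.12 (-0.50 to 0.25). In class II-high cells it was at -0.41 (-0.86 to 0.02) and in resident-like macrophages at -0.36 (-1.13 to 0.40). In C1q-high macrophages the ratio was -0.80 (-1.22 to -0.40), and it was -0.46 (-1.69 to 0.55) among Xist-only ones. In all macrophages the level went from 125 to 57.7 CPM, a ratio of -1.12 (-1.47 to -0.77), or -0.73 with the states weighted equally. Over all myeloid cells it was -0.78, from 208 to 121 CPM. The mix of states differed there, since resident-like cells, the lowest in Ccr2, were 281 of 1524 WT and 327 of 1042 KO myeloid cells. The genes whose profile over the gates was most like that of Ccr2 were Plbd1, Il1b and Cyp4f18, at r of 0.982, 0.982 and 0.981.

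In melanoma cells the ligands summed to 24.3 CPM in WT and 43.2 CPM in KO, a log2 ratio of 0.83, with 3 of 8 measured members higher by 2-fold against 3.71% of 12117 genes and 0 lower against 1.06%. These were Ccl3 (1.75), Ccl8 (1.29) and Ccl12 (1.19), of which Ccl8 and Ccl12 lay in or just above the range of the reference genes. With free RNA subtracted the ratio of the sum was 1.22 and that of Ccl12 was -2.23. Neither has an interval. Ccl12 had only 17 WT and 41 KO UMIs in melanoma cells, and the subtraction took out most of them. Its value is thus a ratio of remainders near 0 and gives no direction.

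The rest of the family was measured for context. Of 11 other CC ligands and 14 other CC receptors, macrophages had 1 and 4 with at least 20 UMIs. Ccl5, a T cell and macrophage ligand, was 2-fold lower in KO macrophages, at 9.72 against 27.0 CPM (log2 ratio -1.48, -2.38 to -0.66). The decoy-like Ccrl2 was at -0.53 (-0.82 to -0.24) and Ccr1, the receptor for CCL6 and CCL9, at 0.18 (-0.05 to 0.41). In resident-like macrophages Ccr1 was at 0.61 (0.28 to 0.94). The median of the 4 measured receptors had the other sign, at -0.68 in resident-like macrophages and -0.53 in all macrophages. In resident-like macrophages 0 of them were 2-fold lower or higher, against 3.36% and 3.31% of all genes. In all macrophages 0 were, against 2.69% and 2.96%.

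Class II-high cells had more Ccl17 and Ccl22, the ligands of CCR4, in KO, at 3.24 (2.61 to 3.91) and 2.36 (1.72 to 3.04). They had less Ccr7, the receptor of migrating dendritic cells and a marker of the dendritic list, at -1.02 (-1.96 to -0.18). Of 4 receptors measured there, 1 was 2-fold lower, against 7.6% of all genes, and 1 higher, against 4.17%. KO cells of this gate were too few for the sets by sex-linked genes. Fibroblasts had Ccl11 (eotaxin), at 486 CPM in WT and 306 in KO (-0.67, -0.90 to -0.43), and the scavenging receptor Ackr3, at 92.97 and 199 CPM (1.10, 0.68 to 1.53). Ccl5 in fibroblasts had 1 and 27 UMIs. In melanoma cells Ccl5 was at 6.47 and 37.6 CPM (2.54, 2.26 to 2.83), and Ccl25 at 20.4 and 22.7 CPM (0.16, -0.05 to 0.36).

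All 21 genes of chemokine receptor signalling, such as Gnai2, Pik3cg and Rac2, were measured in macrophages. Of these 2 were at least 2-fold lower in KO, against 2.69% of all genes, and 0 higher, against 2.96%, with a median log2 ratio of 0.04. The list of 16 NF-kappaB response genes, such as Nfkbia and Tnfaip3, had 0 lower and 0 higher in macrophages, with a median of 0.05. In monocytes 14 of the NF-kappaB genes were measured, 3 lower and 0 higher against 5.48% and 4.31% of all genes, and the median was -0.08. In class II-high cells all 16 were measured, 1 lower and 2 higher against 7.6% and 4.17%, and the median was 0.23.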

How the data were processed

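The authors deposited raw UMI counts per gene and cell, made with Cell Ranger 3.1.0 on GRCm38, per the labels, with 1 library for each of 2 host genotypes. The labels and the methods name different kit versions. The study's filter was applied, which keeps cells of 200 to 5000 genes with a mitochondrial share up to 7.5%. Gates needed at least 6 of 10 melanoma, 4 of 12 myeloid, 5 of 10 fibroblast or 4 of 8 endothelial markers, and then 4 of 9 C1q, 5 of 9 resident, 4 of 7 MHC class II or 2 of 8 monocyte markers. These limits were set after the marker distributions were seen. Doublets called by Scrublet (scanpy 1.11.5; 114 in WT, 50 in KO) stayed in the values reported.

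UMIs were summed per gate and scaled to CPM. Intervals are exact at 95% (Poisson for levels, Clopper-Pearson for shares, conditional binomial for ratios) and cover counting error only. A gene counted as measured with at least 20 UMIs in a gate, and the limit for a count of 0 was 3 UMIs. Shares of cells were taken after thinning to 2000 or 1000 UMIs. Genes named are the 10 members, the CC ligands and receptors of the family lists with at least 20 UMIs in a gate, and the 3 genes of highest correlation for some members. 1 gene of the receptor list is not reported here. The members and lists were chosen with earlier results of these data known. Alternatives were a 15% mitochondrial limit, no upper gene limit, doublets removed, stricter gates, scaling without mitochondrial and ribosomal genes or with TMM factors of edgeR 4.0.16 (R 4.3.3), subtraction of free RNA, no UMI minimum and Xist-only cells. The ratio step was tested on simulated data. Python 3.11.15, numpy 2.4.6, pandas 2.3.3, scipy 1.17.1 and matplotlib 3.10.9 were used.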

Additional observations from a re-analysis of the deposited data

Results flagged for a closer look

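Each of 4 ligands had KO/WT ratios of opposite sign in different myeloid gates, with both counting intervals off 0. The difference between the gates was not tested, since there was 1 library per genotype. Ccl2 had a log2 ratio of -0.50 in resident-like macrophages and 1.65 in class II-high cells, but the former was 0.05 (-0.12 to 0.21) in Xist-only cells. Ccl4 was at -0.33 in resident-like and 0.95 in C1q-high macrophages, but the latter was -0.58 in Xist-only cells. Ccl6 was at -0.17 in C1q-high macrophages and 1.20 in class II-high cells. Ccl9 was at -0.35 in C1q-high macrophages and 0.80 in monocytes. In Xist-only C1q-high macrophages Ccl6 was at 0.46 and Ccl9 at 0.05, so the opposite signs of these ligands were not seen there.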

How the results depend on the processing

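No paired analysis was possible because WT and KO were 1 library each. Removing doublets, dropping the upper gene limit and scaling without mitochondrial and ribosomal genes moved none of the 59 values recomputed under each beyond their counting interval. Other settings changed more of them. Stricter gates moved 14, changed the sign of 1 and left 44 as they were. Among Xist-only cells 18 moved, 8 changed sign and 13 stayed. For KO cells with a Y-linked UMI these counts were 20, 5 and 15, and with free RNA subtracted 5, 1 and 52. A 15% mitochondrial limit moved 2. The ligand sum in macrophages (log2 ratio 0.56) was 0.53 with TMM factors, 0.59 in Xist-only cells, 0.65 for KO cells with a Y-linked UMI and 0.41 with both states weighted equally, the last 2 settings being chosen after seeing the data. In monocytes the sum (0.69) was 0.84 with stricter gates, 1.39 in Xist-only cells and 0.45 for KO cells with a Y-linked UMI. In fibroblasts (0.16) it was -0.073 in Xist-only cells, and in melanoma cells (0.83) it was 1.22 with free RNA subtracted. Ccr2 in monocytes was 0.31 for KO cells with a Y-linked UMI. Without a UMI minimum 1050 of 14224 genes, against 495, passed 2-fold in macrophages.

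Of single members whose interval was off 0, those that changed sign did so mostly in the subsets by sex-linked genes. In Xist-only cells these were Ccl2 (0.0717) and Ccl4 (-0.50) in macrophages, Ccl2 in resident-like macrophages (0.0474) and fibroblasts (-0.0934), and Ccl3 (-0.65), Ccl4 (-0.58), Ccl6 (0.46) and Ccl9 (0.049) in C1q-high macrophages. For KO cells with a Y-linked UMI they were Ccl4 in macrophages (-0.16), Ccl24 in C1q-high macrophages (-1.27), and Ccl2 (-0.30), Ccl7 (-1.01) and Ccl24 (-0.36) in monocytes. Ccl24 in C1q-high macrophages was -0.43 with stricter gates. Ccl12 in melanoma cells was -2.23 with free RNA subtracted, a ratio of what was left of 17 WT and 41 KO UMIs, without an interval. The cause was not tested. Subsets with under 20 cells, or with too few UMIs, gave no value.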
